A study of Mus musculus with 18 samples.

Results

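The sarcoplasmic reticulum (SR) calcium handling genes Ryr2, Atp2a2, Pln, Casq1, Casq2, Trdn, Jph2, Hrc, S100a1 and Camk2d were measured in mouse cardiomyocytes (CMs) from postnatal day 4 (P4) to P28 and after knockdown of Jun. The genes were chosen by name for their known function, with earlier results of these data known. They make up 10 of the 35808 gene columns of the count matrices, and the Ensembl identifier of each column was matched to a gene symbol. Single heart cells were captured in barcoded nanowells and their transcripts were counted as unique molecular identifiers (UMIs).

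Myh6-Cre/Esr1;R26-tdTomato mice, given in the labels as the strain Myh6/Esr1-Tomato, were used throughout. In these mice the Myh6 promoter drives a tamoxifen-dependent Cre in CMs, and tamoxifen was given to the mothers in the first days after delivery. Hearts without a hairpin, called wild-type here although they carried these transgenes, were taken at P4 (2 animals), P7 (2 animals), P14 (2 animals) and P28 (5 animals). In the knockdown experiment, lentivirus made with the pLKO.1 vector was injected into hearts at P1 and cells were taken at P28. It carried a control hairpin (shNT, 2 animals) or a hairpin against Jun (shJun, 2 animals), so the control animals were injected too. The labels give the knockdown chips as mixed samples, and the hairpin and animal of each well came from the deposited well tables. P4 and P7 ventricles were digested in pieces with a kit, while P14 and adult hearts were digested by Langendorff perfusion. Each wild-type chip held 1 stage, so stage, chip and digestion cannot be told apart. In the P14 animals, 276 of the 292 and 155 of the 156 cells used below as CMs came from wells named as a CM fraction. No fraction was read for the wells of P4, P7 and P28, so stage and fraction cannot be told apart either. Animals of P4, P7 and P28 were followed across chips by their name alone, and nothing in the labels ties an animal to a litter. The wells of the third P28 animal were named only as a sample and were taken as 1 animal. The p-values below measure the spread between these animals only.

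In a beating CM, calcium that enters through the surface membrane opens ryanodine receptors, and the calcium they release from the SR drives contraction. A calcium pump then returns it to the SR, where binding proteins store it near the release channels. This cycle builds up after birth as the SR and its junctions with the surface membrane mature, and the same proteins are studied for their part in arrhythmia and heart failure.

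By role, the genes fall into release, storage and uptake. The release channel is Ryr2 (chr13:11553102-12106945, minus strand, GRCm38). Trdn (chr10:33080554-33476709, plus strand) encodes triadin, which anchors calsequestrin to that channel. Jph2 (chr2:163336242-163397993, minus strand) encodes junctophilin 2, which ties the SR to the surface membrane, and Camk2d (chr3:126596302-126846326, plus strand) encodes the main cardiac calcium/calmodulin-dependent kinase, which phosphorylates both the channel and the pump's inhibitor. Casq2 (chr3:102086415-102146514, plus strand) is the cardiac and Casq1 (chr1:172209894-172219868, minus strand) the skeletal muscle calsequestrin, and Hrc (chr7:45335290-45338974, plus strand) encodes a histidine-rich calcium-binding protein of the SR lumen. Atp2a2 (chr5:122453513-122502225, minus strand) encodes the pump SERCA2, Pln (chr10:53337667-53345987, plus strand) its inhibitor phospholamban, and S100a1 (chr3:90511034-90514392, minus strand) a calcium sensor that binds the pump and the channel. Some exons are shared with other genes, and the strand setting of the counting is not given in the sources used here. Pln shares 141 exonic bases with Cep85l on the opposite strand and 59.6% of its exonic bases with Gm47644, which has no column in the matrices. Casq1 shares 156 exonic bases with the antisense gene Gm17224, and Atp2a2 shares 83 with Gm43361. The counts of these 3 genes are uncertain to that extent.

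The knocked down factor, Jun, is a subunit of AP-1, so the sequences before the start sites were read for its letters. RefSeq promoters (GRCm38.p6) matched 8 of the 10 genes, all but Atp2a2 and Trdn. The 250 bases before each start were searched on both strands, and overlapping matches were kept. The AP-1 letters TGANTCA were in 6.87% of 27025 promoters and in 0 of these 8, and the related letters TGACGTCA of a cyclic AMP response element were in 1.62% and in 0 of 8. The GATA letters AGATAA, in 10.3% of all promoters, were found only in that of Pln, starting 183 bases before its start. A MEF2 motif, in 3.01% of all promoters, was found only in that of Casq2, starting 69 bases before its start. A CArG box was in 1.4% of all promoters and in 0 of 8. A match is a description of letters, and letters that are not in this window say nothing about the factor elsewhere. Shown are the windows of Pln (chr10:53337436-53337666, plus strand) and Casq2 (chr3:102086165-102086414, plus strand), the only ones with a match, and that of Hrc (chr7:45335019-45335268, plus strand), which is shown beside them because Hrc had the smallest adjusted p at P28 against P4. Capitals mark the GATA letters in Pln, which read as written on the minus strand, and the MEF2 motif in Casq2. The window of Pln stops where the GENCODE gene begins.
Pln: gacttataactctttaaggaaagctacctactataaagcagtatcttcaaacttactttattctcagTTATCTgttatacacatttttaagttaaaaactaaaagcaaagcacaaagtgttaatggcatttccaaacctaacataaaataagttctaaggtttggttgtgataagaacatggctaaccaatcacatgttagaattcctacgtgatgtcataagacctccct
Casq2: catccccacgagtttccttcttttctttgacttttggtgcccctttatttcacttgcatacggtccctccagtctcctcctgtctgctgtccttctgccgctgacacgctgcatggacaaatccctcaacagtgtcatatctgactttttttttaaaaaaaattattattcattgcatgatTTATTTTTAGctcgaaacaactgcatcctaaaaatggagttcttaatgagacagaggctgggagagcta
Hrc: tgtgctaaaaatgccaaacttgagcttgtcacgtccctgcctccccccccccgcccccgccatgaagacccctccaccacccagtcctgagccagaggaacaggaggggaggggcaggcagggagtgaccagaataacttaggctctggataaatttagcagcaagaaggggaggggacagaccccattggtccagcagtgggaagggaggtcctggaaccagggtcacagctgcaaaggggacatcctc

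Of 23475 cells, 19851 passed the filter, and clusters named from CM markers held 3031 CM-like cells of the stage series and 3662 of the knockdown series. The P4 animals gave 128 and 214 CM-like cells, those of P7 11 and 28, those of P14 292 and 156, those of P28 278 to 571 and those of the knockdown series 716 to 1065, so P7 rests on 39 cells. Clusters of 373 cells at P4 and 330 at P7 were named Erythroid, although all 10 CM markers were detected. Their CM markers had mean log2 folds of 0.634 and 0.737, next after the CM-like cluster. CMs called cell by cell numbered 464 and 543 at P4 and 175 and 341 at P7. Median UMIs per CM-like cell were 21200 to 28920 at P4 and 35770 to 41170 at P7. They were 7312 to 10400 at P14 and 4428 to 34710 at P28. So the stages differed in depth per cell. The summed depth of CM-like cells was 703085 to 20566940 UMIs per animal in the stage series and 41750747 to 64414686 in the knockdown series. Levels below are UMI counts scaled to a common total outside the mitochondrial genes (CPM, the usual unit of depth-scaled counts) and then by the trimmed mean of M-values (scaled CPM). They were compared within a gene and within the stage series or the knockdown series. CM markers took 36390 to 112700 CPM of the CM-like sums of the stages and 114900 to 133400 CPM of the knockdown sums. Erythroid markers took 209 to 472 CPM at P4, 1299 to 2004 at P7, 2551 to 86760 at P14 and 5364 to 56660 at P28, and the mitochondrial share of UMIs was 19.0% to 21.9%, 35.3% to 38.3%, 68.2% to 78.9% and 44.5% to 74.6%. Endothelial markers took 267 to 448 CPM at P4, 502 to 572 at P7, 732 to 874 at P14 and 966 to 3856 at P28, and macrophage markers 13.7 to 16.7 CPM at P4 and 148 to 508 at P28. All of these moved with stage, and their part in the differences below was not tested. Wells share a fixed set of barcodes: 4890 of 5051 barcodes carried a cell on more than 1 of the 18 chips, so a barcode names a cell only together with its chip. Leading genes of 2 CM-like clusters were those of other cells. Cluster 12 of P28 (102 of the 2202 P28 CM-like cells) was led by Rgs1, Ccl4, Cxcl2, Plek and Tnfaip3 and held 3245 CPM of macrophage markers against 121 in the other CM-like cells of P28, with 52770 against 61100 CPM of CM markers. Cluster 1 of the second shNT animal (396 of its 1065 CM-like cells) had Ccl21a, Pcdh17, Sox7 and Sh2b3 among its leading genes and held 4131 CPM of endothelial markers against 1069, with 103000 against 119000 CPM of CM markers. No cluster of that animal was named Endothelial-like. Without both clusters, edgeR called none of the 10 genes in any comparison either.

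The postnatal stages ask how SR calcium handling transcripts follow CM maturation. Mean scaled CPM was highest at P14 for Atp2a2, Pln, Hrc, Ryr2, Trdn, Camk2d and Jph2, and lowest at P28 for Ryr2, Trdn, Camk2d and Casq2. This order depended on the trimmed mean scaling, whose factors were lowest at P14 (0.622 and 0.760). In CPM without it, the mean stayed highest at P14 for Atp2a2 and Pln alone, and that of Casq2 was lowest at P14. Trdn was then at 548 and 858 CPM at P14 against 1077 and 1150 at P4. In none of the 5 stage comparisons did edgeR's quasi-likelihood test call any of the 10 genes at an adjusted p under 0.05 over 13852 genes. The fitted difference was above 0 for 8 of 10 genes at P14 against P4, and below 0 for 8 of 10 genes at P28 against P14. DESeq2 called 1 of the 10, Atp2a2, at P14 against P4, beside 6.58% of all genes. It called none in the other 4 comparisons, beside 4.09% (P7 against P4), 11.5% (P14 against P7), 1.2% (P28 against P14) and 11.8% (P28 against P4) of all genes.

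Atp2a2, the pump, was at 3137 and 2773 scaled CPM in the P4 animals and at 4677 and 2633 in those of P7. It was at 6046 and 8559 at P14, and at 5247, 4389, 5101, 4282 and 5559 in the 5 P28 animals. In scaled CPM both P14 animals lay above every other wild-type animal, and all P28 animals lay above both P4 animals. Without the trimmed mean scaling the P14 animals were at 3761 and 6502 CPM and those of P4 at 3790 and 3152. The log2 fold change was 1.31 ± 0.49 (SE, n = 2 against 2) at P14 against P4, with a 95% interval of 0.28 to 2.33 and an edgeR adjusted p of 0.19. With DESeq2 the adjusted p of this difference was 0.0236, and with sums per chip in place of sums per animal edgeR gave 0.0479. With sums per chip, 360 of 13988 genes were called higher and 170 lower. Against P4, P28 differed by 0.73 ± 0.42 with an edgeR adjusted p of 0.355.

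Pln, the inhibitor of the pump, had 1220 and 1702 scaled CPM at P4, 1409 and 1906 at P7, and 3043 and 4855 at P14. The P28 animals were at 3456, 2182, 4076, 1576 and 1505. In scaled CPM the P14 animals lay above those of P4 and P7, while the P28 animals spanned from the P4 level to that of P14. Without the trimmed mean scaling the first P14 animal was at 1893 CPM and the second P4 animal at 1935. The log2 fold change at P14 against P4 was 1.43 ± 0.56 (SE), and the edgeR adjusted p was 0.207. At P28 against P4 it was 0.81 ± 0.48, with an edgeR adjusted p of 0.376.

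S100a1, the calcium sensor, was at 754 and 1011 scaled CPM at P4, 447 and 979 at P7, and 1350 and 1992 at P14. At P28 it was at 1180, 904, 1986, 2393 and 2166, with 4 of the 5 animals above both P4 animals. Against P4 the log2 fold change was 0.92 ± 0.54 at P14 and 0.97 ± 0.48 at P28, with edgeR adjusted p-values of 0.431 and 0.272.

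Hrc, the lumenal calcium-binding protein, was at 343 and 484 scaled CPM at P4, 505 and 497 at P7, and 780 and 1070 at P14. The 5 P28 animals were at 605, 474, 1078, 869 and 1048, of which 1 lay within the range of P4. The log2 fold change was 1.16 ± 0.48 at P14 against P4 and 0.98 ± 0.42 at P28 against P4, with edgeR adjusted p-values of 0.239 and 0.198. When CMs were called cell by cell from their markers in place of clusters, Hrc passed the threshold at P28 against P4 (edgeR adjusted p = 0.0478). Over all 14577 genes tested in that fit, 289 were called higher and 326 lower.

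**Figure D1:**
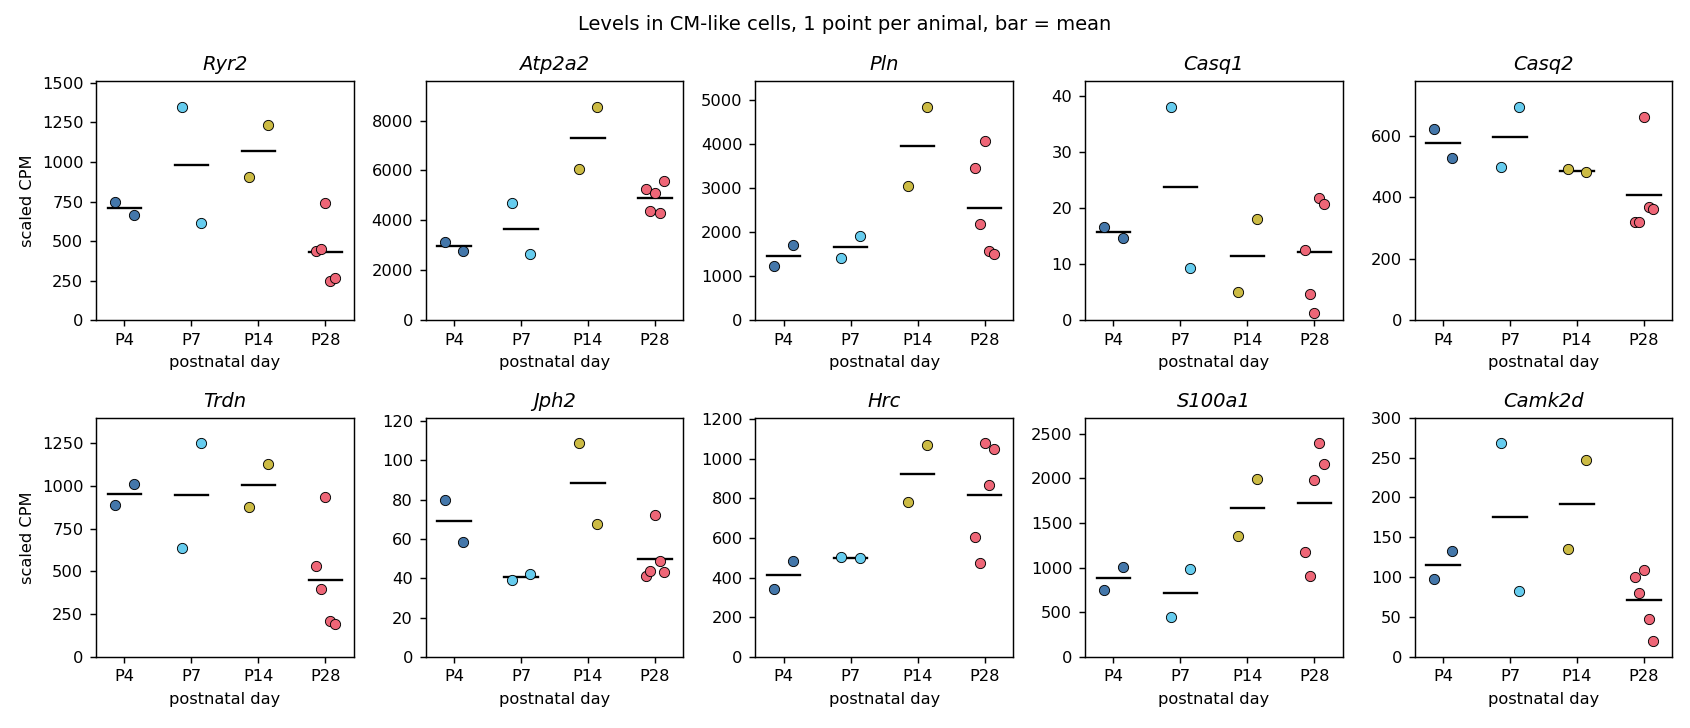
Scaled CPM of each of the 10 genes in CM-like cells (vertical axis, scaled CPM) at P4, P7, P14 and P28 (horizontal axis), with 1 point per animal and a bar at the mean of each stage. Atp2a2 reached 6046 and 8559 in the P14 animals, above the other 9 animals, and Ryr2 was at 907 and 1232 at P14 against 246 to 744 at P28.

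Ryr2, the release channel, was at 748 and 664 scaled CPM at P4, 1350 and 612 at P7, and 907 and 1232 at P14. The P28 animals were at 439, 452, 744, 246 and 266, all below both P14 animals and 4 of the 5 below both P4 animals. The log2 fold change at P28 against P14 was −1.32 ± 0.43 (SE, n = 5 against 2), with a 95% interval of −2.22 to −0.41, an unadjusted p of 0.00678 and an edgeR adjusted p of 0.345. That of P28 against P4 was −0.72 ± 0.44 (edgeR adjusted p = 0.395).

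Camk2d, the kinase, was at 97.5 and 133 scaled CPM at P4, 268 and 82.8 at P7, then 135 and 248 at P14, and 99.5, 80.6, 109, 47.7 and 19.6 at P28. All P28 animals lay below both P14 animals. The log2 fold change at P28 against P14 was −1.41 ± 0.52, with an unadjusted p of 0.0144 and an edgeR adjusted p of 0.388.

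Trdn was at 892 and 1011 scaled CPM at P4, 639 and 1250 at P7, and 880 and 1129 at P14. At P28 it was at 530, 397, 936, 207 and 194, and 1 of these 5 animals overlapped with P4 and P14. Its log2 fold change was −1.07 ± 0.50 at P28 against P4 and −1.15 ± 0.50 at P28 against P14, with edgeR adjusted p-values of 0.243 and 0.458. Jph2 was at 79.9 and 58.6 scaled CPM at P4, 39.2 and 42.4 at P7, then 109 and 67.8 at P14, and 41.4 to 72.3 at P28. The stages of Jph2 overlapped except that both P7 animals lay below those of P4 and P14. Of all genes, 31.8% lay below P4 and 28.7% below P14 in this way. The log2 fold change of Jph2 at P28 against P14 was −0.82 ± 0.39 (edgeR adjusted p = 0.49).

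Casq2, the cardiac calsequestrin, was at 622 and 528 scaled CPM at P4, 497 and 695 at P7, then 490 and 482 at P14, and 321, 320, 661, 370 and 360 at P28. Of the 5 P28 animals, 4 lay below every animal of the earlier stages and 1 lay above all but the second P7 animal. Its log2 fold change was −0.50 ± 0.37 at P28 against P4, with an edgeR adjusted p of 0.499. Casq1, the skeletal muscle form, was at 16.61 and 14.7 scaled CPM at P4, 38.12 and 9.344 at P7, then 4.957 and 18.03 at P14 and 1.295 to 21.82 at P28. These groups overlapped in every pairing, and the SE of its log2 differences was about 1, at 0.85 for P28 against P4. In the first P7 animal 1 cell gave 65.7% of the Casq1 UMIs, 37.3% of those of Hrc and 35.7% of those of Ryr2.

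**Figure D2:**
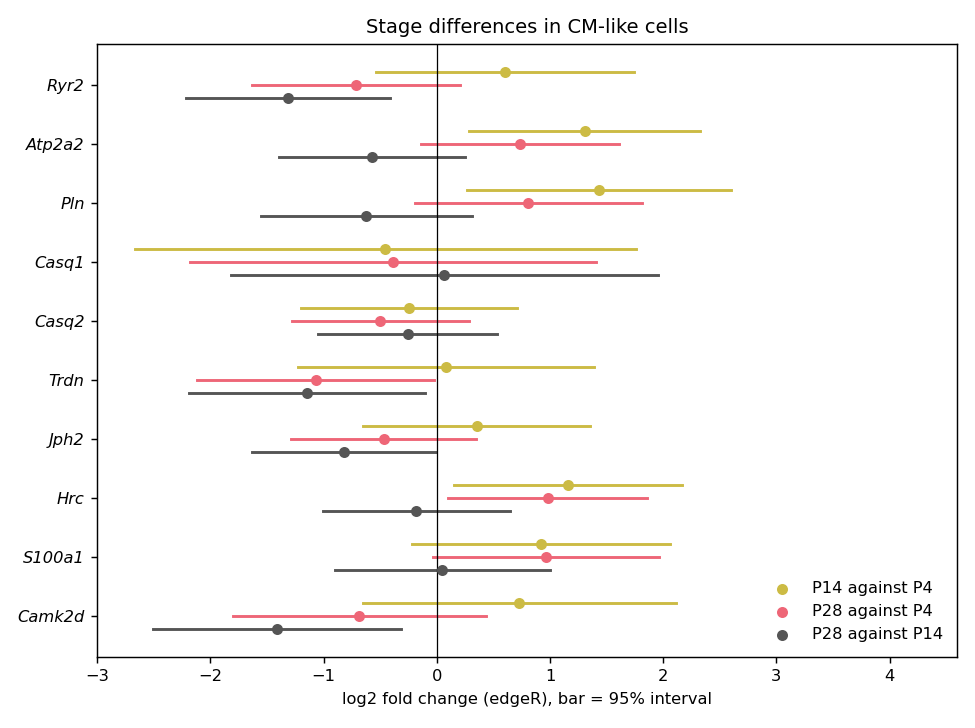
Log2 fold changes in CM-like cells fitted with edgeR (horizontal axis), for P14 against P4, P28 against P4 and P28 against P14, with 95% intervals as bars and the 10 genes on the vertical axis. The intervals of Atp2a2, Pln and Hrc at P14 against P4 and those of Ryr2, Camk2d, Trdn and Jph2 at P28 against P14 and of Hrc and Trdn at P28 against P4 do not cross 0, and no difference passed an adjusted p under 0.05.

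Set against all genes, the counts for the 10 genes were as follows. At P7 against P4, 0 of 10 were called beside 0.00722% of all genes, 0 of 10 had an unadjusted p under 0.05 beside 15.7% of all genes, and the log2 fold changes ran from −0.76 (Jph2) to 0.60 (Camk2d). At P14 against P7, 0 of 10 were called beside 3.31% of all genes, and 3 of 10 were higher at an unadjusted p under 0.05 (Jph2, Pln and S100a1, log2 fold changes 1.11, 1.25 and 1.23), beside 14.4% of all genes higher and 23.2% in either direction. With the cell-by-cell calls, Atp2a2, Hrc and Pln passed the threshold in that comparison (edgeR adjusted p = 0.00346, 0.0486 and 0.0179). Over all 14577 genes tested with those calls, 608 were called higher and 377 lower. The median of the 10 was 0.23 and 0.51 on the log2 scale in these comparisons, beside −0.24 and 0.27 over all genes. In scaled CPM, P7 lay above P4 for 1 of 10 genes (Hrc), beside 12.2% of all genes, and below for 1 (Jph2), beside 31.8%. P14 lay above P7 for 5 of 10 (Atp2a2, Hrc, Jph2, Pln and S100a1), beside 28.7%, and below for 1 (Casq2), beside 14.7%.

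At P14 against P4, 0 of 10 were called beside 1.39% of all genes, and 3 of 10 (Atp2a2, Pln, Hrc) were higher at an unadjusted p under 0.05, beside 8.84% of all genes higher and 16.1% in either direction. All P14 animals exceeded all P4 animals for 6 of 10 genes (Atp2a2, Camk2d, Hrc, Pln, Ryr2 and S100a1), beside 22.1% of all genes, and they lay below them for 1 of 10 (Casq2), beside 26.6%. The median log2 fold change was 0.66 over the 10 genes and −0.0054 over all. These directions depended on the scaling. The scaling factors were 0.622 and 0.760 at P14 against 1.21 and 1.14 at P4. In CPM without them, P14 and P4 overlapped for all 6 genes that were higher, with Atp2a2 at 3761 and 6502 against 3790 and 3152. Casq2 stayed lower at P14, at 305 and 366 against 752 and 600 CPM. With library totals alone, the median of all genes moved to −0.77, and Ryr2, Trdn and Jph2 stood at −0.15, −0.66 and −0.45 in place of 0.60, 0.08 and 0.35.

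At P28 against P14, 0 of 10 were called beside 0.0% of all genes with edgeR, where 1394 genes (10.1%) had an unadjusted p under 0.05 and DESeq2 called 108 higher and 58 lower. Of the 10 genes, 4 (Ryr2, Camk2d, Trdn and Jph2) were lower at an unadjusted p under 0.05, beside 4.4% of all genes. All P28 animals lay below both P14 animals for 3 of 10 genes (Atp2a2, Camk2d and Ryr2), beside 6.73% of all genes, and above them for 0 of 10, beside 10.7%. In CPM without the trimmed mean scaling, P28 and P14 overlapped for these 3 genes. The median was −0.60 over the 10 genes and 0.12 over all.

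At P28 against P4, 0 of 10 were called beside 4.87% of all genes, with 1 of 10 higher (Hrc) and 1 lower (Trdn) at an unadjusted p under 0.05, beside 19.6% of all genes in either direction. The P28 animals lay above both P4 animals for 1 of 10 genes (Atp2a2), beside 16.1% of all genes, and below them for 0 of 10, beside 15.1%. The median was −0.43 over the 10 genes and 0.09 over all.

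Within P28 the animals separated by chip. Animals 1 and 2 were on chip 1, animal 3 on chip 3 and animals 4 and 5 on chip 5, which together held 2186 of the 2202 P28 CM-like cells. The animals of chip 1 did not overlap with those of chip 5 for 8 of the 10 genes, beside 51.6% of all genes. Ryr2, Trdn, Pln and Camk2d were higher on chip 1, with Trdn at 530 and 397 against 207 and 194 scaled CPM. Hrc, S100a1, Casq2 and Casq1 were higher on chip 5, with S100a1 at 2393 and 2166 against 1180 and 904. Animal 3 was the highest of the 5 for Ryr2, Pln, Trdn, Casq2, Jph2, Hrc and Camk2d, and the lowest for Casq1. Its CM-like cells had a median of 34710 UMIs, against 4428 to 6462 in the other 4 animals. Within animal 3, the 537 cells of at least 10000 UMIs and the 34 shallower cells held 571 and 567 CPM of Casq2, 3519 and 3488 of Pln, and 639 and 980 of Ryr2.

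At P4 the CM-like cells held cells with atrial markers, although the tissue is given above as ventricles. How these cells came to be there was not tested. A cell was set apart when its UMIs of Myl7, Myl4 and Sln together exceeded those of Myl2, which took 57 of 128 cells in the first animal and 63 of 214 in the second, or 120 of 342. Pln was at 454 CPM (here without the trimmed mean scaling) in these cells and 2338 in the others of the first animal. In the second animal it was at 482 and 2512 CPM, so it was 5.14-fold and 5.21-fold lower in the atrial-marked cells. Ryr2 was 1.87-fold and 1.48-fold lower in them, at 614 against 1150 CPM and 560 against 832 CPM. Trdn, the other release partner, was at 1239 against 940 CPM and 1193 against 1133 CPM, slightly higher in the atrial-marked cells of both animals. The 2 animals differed in direction for Hrc, S100a1, Camk2d and Casq1: Hrc was at 419 against 411 CPM in the first and 335 against 635 CPM in the second. These values are a description and were not tested, since the cells were split by their own counts and share 2 animals. Atrial markers took 16970 to 25560 CPM at P4 and 1.08 to 602 CPM at P14 and P28. Without the atrial-marked cells, the log2 fold change of Pln was 0.21 ± 0.45 in place of 0.81 at P28 against P4, and 0.89 in place of 1.43 at P14 against P4, and that of Ryr2 at P28 against P4 was −1.07 (edgeR adjusted p = 0.17) in place of −0.72.

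**Figure D3:**
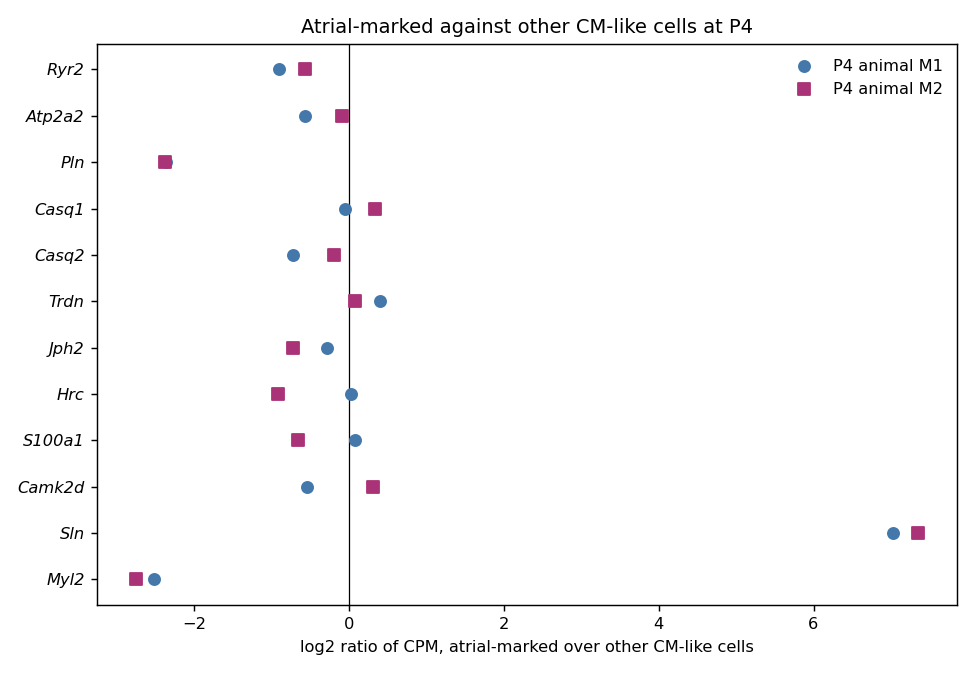
Log2 ratio of CPM in atrial-marked to other CM-like cells at P4 (horizontal axis) for the 10 genes, with Sln and Myl2, which entered the split, for orientation. Each of the 2 P4 animals is 1 point per gene, and Pln lies near −2.4 in both while most other genes of the 10 lie within 1 unit of 0.

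The ratio of Pln to Atp2a2 UMIs, the inhibitor over the pump, was 0.389 and 0.614 at P4, 0.301 and 0.724 at P7, and 0.503 and 0.567 at P14. At P28 it was 0.659, 0.497, 0.799, 0.368 and 0.271. The P28 animals spread to both sides of those of P4, and the difference of mean log2 ratios was −0.019 (p = 1.0 in a two-sided exact permutation test that can reach 0.0952 at the lowest). Without the atrial-marked cells, in which Pln was lower, this difference was −0.41 (p = 0.476, exact permutation test).

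Of the wider pathway, 53 genes in 5 lists were read beside the 10, and 49 of them could be tested between stages. None was called higher in any stage comparison by edgeR. Over all genes, edgeR called 2.15% higher at P14 against P7, 0.816% at P14 against P4 and 2.89% at P28 against P4. It called none higher at P7 against P4 or at P28 against P14. At P28 against P4, 6 were higher and 9 lower at an unadjusted p under 0.05, beside 11.6% and 8.03% of all genes, and DESeq2 called 4 higher and 6 lower, beside 8.44% and 3.31% of all genes. Sln, encoding sarcolipin, the atrial counterpart of phospholamban, was called lower at P14 against P7, P14 against P4 and P28 against P4. Of all genes, 1.16%, 0.578% and 1.98% were called lower in these comparisons. Sln was at 6819 and 4219 scaled CPM at P4, 198 and 0 at P7, 0 in both P14 animals (a limit of 1.14 and 1.42 at 3 counts) and 3.93 to 140 at P28. Without the atrial-marked cells the P28 difference in Sln was not called (log2 fold change −1.23, edgeR adjusted p = 0.419), but Sln itself entered the split, which lowers it at P4 by construction. Without the first or the second P14 animal, the difference in Sln from P4 had an edgeR adjusted p of 0.0678 or 0.0521, and that from P7 of 0.135 or 0.152. The call of P14 against P7 was lost under 10 of 24 other settings, and without the first P7 animal the log2 fold change was 0.0 (edgeR adjusted p = 1.0).

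At P28 against P4 another 4 pathway genes were called lower. Ppp1r1a, encoding an inhibitor of protein phosphatase 1, fell by 5.47 ± 0.76 on the log2 scale (edgeR adjusted p = 0.000808), from 134 and 134 scaled CPM to 0.302 to 6.40, and by 3.93 without the atrial-marked cells. Ppp1ca, a catalytic subunit of that phosphatase, fell by 2.09 ± 0.44 (edgeR adjusted p = 0.0103), from 154 and 157 to 20.1 to 61.7 scaled CPM. Ppp1cb, another catalytic subunit, was not called by edgeR. DESeq2 called Ppp1cb at P28 against P4 and, as higher, at P14 against P4. Slc8a1, the sodium-calcium exchanger of the surface membrane, was at 60.9 and 128 at P4, 209 and 156 at P7, then 13.4 and 56.5 at P14 and 11.4 to 47.0 at P28. It fell by 2.22 ± 0.56 from P4 to P28 (edgeR adjusted p = 0.0287). Ryr3, a minor ryanodine receptor, fell by 3.52 ± 0.88 (edgeR adjusted p = 0.0287), from 26.9 and 6.38 scaled CPM to 0.291 to 1.96. Ppp1r1a was called under 26 of 26 other settings, Ppp1ca under 23 of 26, Slc8a1 under 18 of 26 and Ryr3 under 17 of 24. Without the first or the second P4 animal the edgeR adjusted p was 0.0979 or 0.126 for Ppp1ca, 0.0723 or 0.390 for Slc8a1 and 0.490 or 0.0668 for Ryr3. Leaving out P28 animal 1, 2 or 5 also ended the call of Slc8a1 (edgeR adjusted p = 0.0613, 0.0553 and 0.0558), and leaving out P28 animal 1 or 3 that of Ryr3 (0.0564 and 0.0661). By list, called lower at P28 against P4 were 1 of 3 tested genes of the pump and its small regulators, 1 of 17 release channel and junction partners, 1 of 10 genes of surface membrane entry and exit, 2 of 13 kinases and phosphatases and 0 of 6 lumen proteins of the endoplasmic reticulum, beside 1.98% of all genes. Their median log2 fold changes were 0.65, 0.01, 0.43, −0.05 and −0.05, beside 0.09 over all genes.

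Knockdown of Jun asks whether this factor takes part in the P28 state of CMs. Jun itself, which shares 232 exonic bases with the antisense gene Junos, was at 55.4 and 64.9 scaled CPM in the shNT animals and at 27.4 and 31.0 in the shJun animals. Both shJun animals lay below both shNT animals, with a log2 fold change of −1.04 ± 0.24 (SE, n = 2 against 2, unadjusted p = 0.00425, edgeR adjusted p = 1.0). The targeted gene therefore differed in the direction of its label but did not pass the threshold over 17807 genes.

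None of the 10 SR calcium handling genes was called between shJun and shNT by edgeR (0 of 10, beside 0.0% of all genes) or by DESeq2, and 0 of 10 had an unadjusted p under 0.05. Over all genes, 400 (2.25%) had an unadjusted p under 0.05 and DESeq2 called 7 higher and 4 lower. Log2 fold changes were −0.54 ± 0.35 for Casq1 and from −0.17 to 0.07 for the other 9 genes, with a median of −0.04 beside −0.0089 over all genes. The 95% interval was widest for Casq1, at −1.40 to 0.32, and narrowest for Trdn, at −0.61 to 0.38.

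Among the genes of uptake, Atp2a2 was at 14100 and 12880 scaled CPM in shNT and 13600 and 13430 in shJun, with an interval of −0.56 to 0.57. Pln was at 3948 and 3572 in shNT and 2804 and 3954 in shJun, and S100a1 at 874 and 980 against 723 and 1087. The groups overlapped for all 3. Their ratio of Pln to Atp2a2 was 0.280 and 0.277 in shNT and 0.206 and 0.295 in shJun (p = 1.0 in a two-sided exact permutation test that cannot go below 0.333).

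Ryr2 was at 2308 and 2001 scaled CPM in shNT and 2475 and 1724 in shJun, with an interval of −0.65 to 0.58. Trdn was at 1217 and 1122 against 1166 and 996, Jph2 at 129 and 81.5 against 114 and 72.6, and Camk2d at 220 and 152 against 184 and 208. Casq2 was at 1525 and 897 against 1316 and 1090, Hrc at 2786 and 2158 against 2895 and 2038, and Casq1 at 23.9 and 13.8 against 13.1 and 12.9. The shJun animals lay below both shNT animals for Casq1 alone (1 of 10, beside 12.3% of all genes) and above them for none (0 of 10, beside 12.4%).

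The animals numbered 1 shared 3 chips and those numbered 2 the other 3. Both animals numbered 1 lay above both numbered 2 for Atp2a2, Casq2, Hrc, Jph2, Ryr2 and Trdn and below them for S100a1, or 7 of 10 genes, beside 45.9% of all genes that did not overlap in either direction. With the number as a block, the log2 fold changes of the 10 genes ran from −0.48 (Casq1) to 0.09 (Camk2d), with an edgeR adjusted p of 1.0 for each. Of the 52 pathway genes tested here, 0 were called in either direction by edgeR or by DESeq2, and 2 had an unadjusted p under 0.05, both lower.

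**Figure D4:**
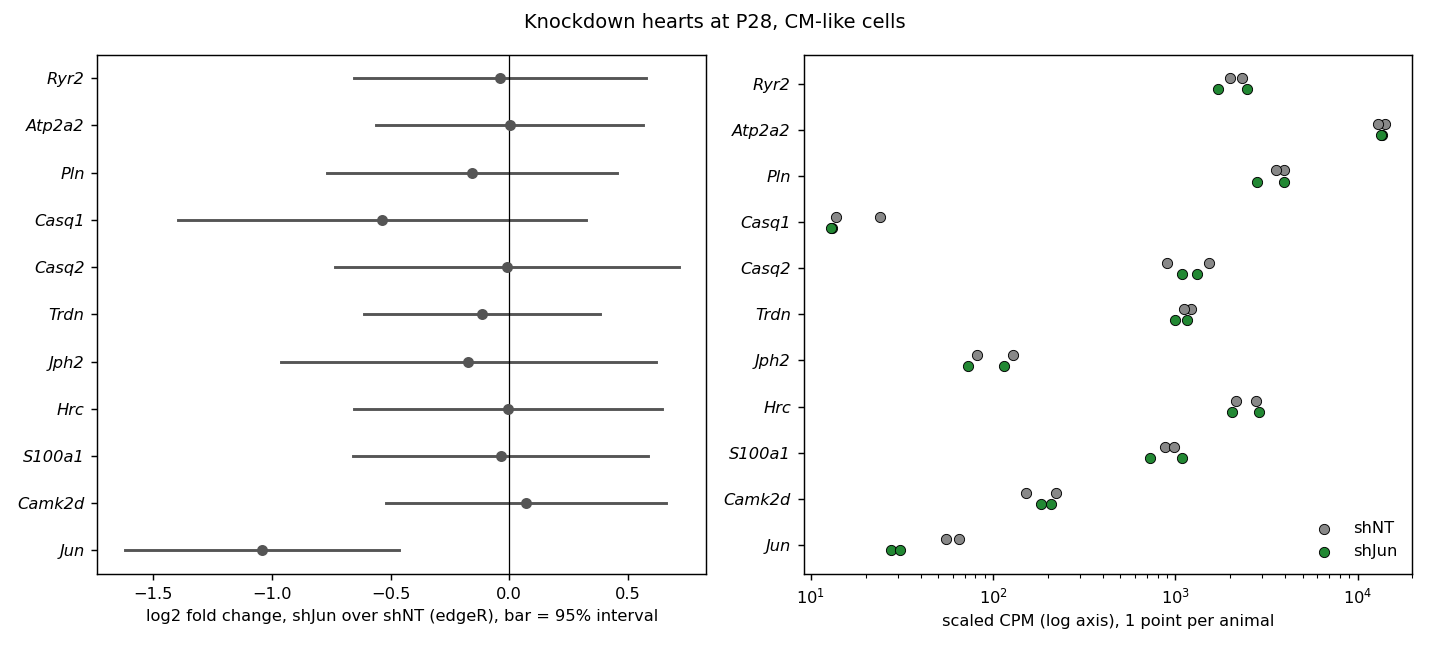
Left, log2 fold change of shJun against shNT in CM-like cells with its 95% interval for Jun and the 10 SR calcium handling genes. Right, scaled CPM on a log axis with 1 point per animal, where the shNT and shJun animals overlap for 9 of the 10 genes and Jun was at 55.4 and 64.9 in shNT and 27.4 and 31.0 in shJun.

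Levels outside the CM-like clusters were read as a share of the CM-like level of the same animal, over 14 animals for Endothelial-like and 15 for Fibroblast-like and Macrophage-like cells. The CM markers themselves stood at a median of 10.9%, 10.4% and 18.1% there. Atp2a2 was at 9.93%, 8.71% and 8.64%, Ryr2 at 9.61%, 11.8% and 15.3%, and Pln at 12.5%, 13.9% and 13.8%. Casq2, Trdn, Hrc and Casq1 had medians between 6.02% and 16.7% in these 3 classes. At the level of the CM markers, UMIs from free RNA cannot be told apart from expression. S100a1 (39.5%, 19.9% and 43.4%) and Camk2d (44.8%, 42.0% and 45.4%) stood above the CM markers in all 3 classes, and Jph2 (20.3%, 19.9% and 15.97%) in 2 of them. Pln and Casq2 (11.3% and 10.6%) stood above them by less in Endothelial-like and Fibroblast-like cells. So did Hrc and Trdn in Endothelial-like and Ryr2 in Fibroblast-like cells. Camk2d exceeded the CM-like level in the Macrophage-like cells of 3 animals. In Mural-like cells, found in 8 animals, the CM markers stood at a median of 19.7%, Casq2 at 35.5%, Hrc at 41.0% and Jph2 at 60.8%, with ranges over animals of 4.12% to 62.7% for the CM markers and 4.24% to 99.6% for Hrc. Camk2d (54.9%), S100a1 (38.1%), Pln (28.8%) and Atp2a2 (25.5%) also stood above the CM markers there, and Ryr2, Trdn and Casq1 below.

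**Figure D5:**
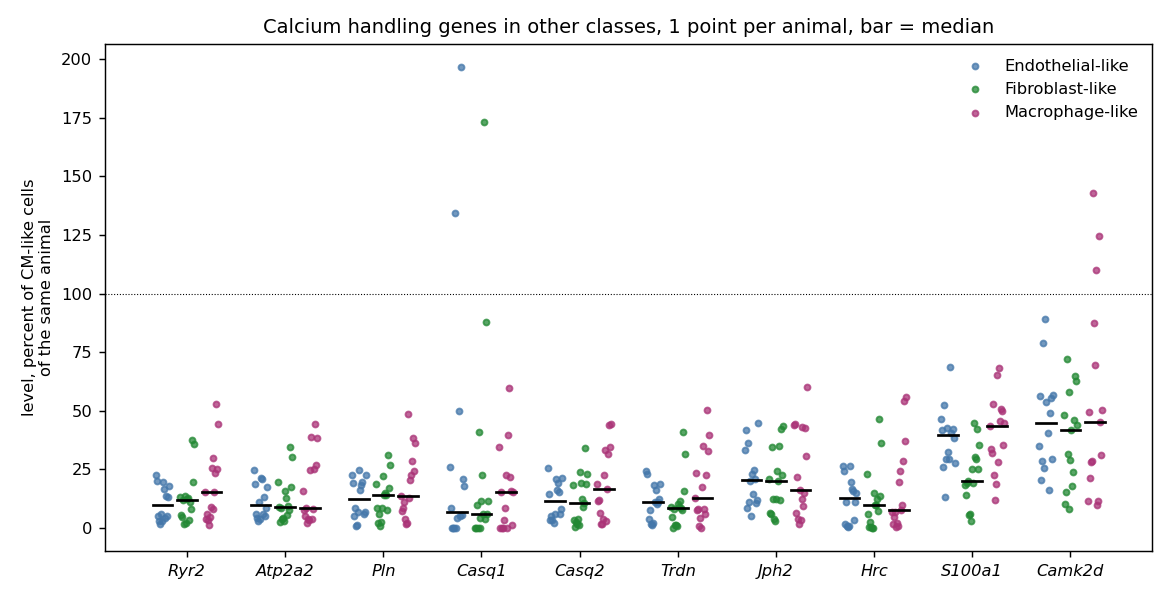
Level in Endothelial-like, Fibroblast-like and Macrophage-like cells as a percentage of the CM-like level of the same animal (vertical axis), with 1 point per animal and a bar at the median, for the 10 genes. Medians of Camk2d were 42.0% to 45.4%, while those of Atp2a2 were 8.64% to 9.93%.

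CM-like cells were thinned to 2000 UMIs outside the mitochondrial genes to compare the share of cells with at least 1 UMI across depths. For Ryr2 this share was 57.5% to 61.7% of CM-like cells at P4, 71.4% to 90.9% at P7, 38.7% to 44.2% at P14 and 26.03% to 63.25% at P28, and 91.9% to 96.9% in the knockdown series. Without thinning it was 91.6% to 93.8% at P4, 66.7% to 69.9% at P14 and 44.7% to 98.9% at P28, and 176 of the P28 cells, 29 of the shNT cells and 18 of the shJun cells were too shallow to thin. In Endothelial-like cells the thinned share was 14.8% to 17.9% at P4 and 0.909% to 6.25% at P28. Atp2a2 was seen in 96.3% to 96.9% of thinned CM-like cells at P4, 90.1% to 92.3% at P14 and 99.5% to 99.9% in the knockdown series. Hrc was seen in 34.4% to 44.4% at P4 and 31.4% to 31.5% at P14, and S100a1 in 60.2% to 63.1% and 45.5% to 48.3%. Shares of Pln overlapped, at 74.2% to 81.3% and 70.55% to 79.5%. Casq1 was seen in 0% to 9.09% over all animals. Camk2d was seen in 19.5% to 21.0% at P4 and 9.62% to 9.93% at P14. For Ryr2, Atp2a2, Hrc, S100a1 and Camk2d the order of P14 and P4 in this share goes against that in scaled CPM. Why the measures differ was not tested, and no stage difference was concluded from the shares.

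Within P28 the 7 CM-like clusters differed among themselves, which is a description since these cells were clustered. The highest and lowest cluster differed 5.2-fold for Ryr2 and 4.15-fold for Trdn, against 2.18-fold for Atp2a2 and 2.16-fold for Hrc. Casq1, at 1.61 to 15.4 CPM, had the widest spread of the 10, at 9.6-fold. Across the 11 wild-type animals, the 10 genes moved in partly shared patterns of log2 CPM. Ryr2 and Camk2d had a Pearson r of 0.911, Ryr2 and Trdn of 0.805, and Casq2 and Trdn of 0.766. Hrc and S100a1 had an r of 0.848 and Atp2a2 and Pln of 0.656, while Ryr2 and S100a1 had an r of −0.495 and Pln and Casq1 of −0.549. Over all genes the one most like Ryr2 was Akap6 (r = 0.939), that most like Atp2a2 was Ppp1cb (0.958), that most like Pln was Ank1 (0.941) and that most like S100a1 was Atp5g3 (0.982). Trdn was most like Acaa2 (0.972), Hrc like Btbd1 (0.949), Camk2d like Ubl7 (0.934), Casq2 like Cops9 (0.928), Jph2 like 5033417F24Rik (0.883) and Casq1 like Rpl15 (0.861). The points share chips and depths by stage, so these correlations are given without a p.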

How the data were processed

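Single cells were captured on 18 ICELL8 chips, and the authors deposited UMI counts per well and gene. Per the submitters' processing notes, STAR 2.5.2b, Subread 1.4.6-p1 with featureCounts and mm10 were used. No doublet caller was run here, since the study imaged wells. Cells with at least 500 genes and log10 UMIs within 2 SD of their group mean were clustered (leidenalg 0.10.2, igraph 0.11.9 and scikit-learn 1.9.0 in Python 3.11.15, with pandas 2.3.3, numpy 2.4.6 and scipy 1.17.1) and named from marker lists, leaving out the genes reported. Names were rebuilt here, and 2 naming choices (a globin rule and leading genes detected in at least 20% of cells) were set after clusters were seen.

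UMI counts of CM-like cells were summed per animal (at least 10 cells) and tested with edgeR 4.0.16 in R 4.3.3 (TMM, filterByExpr, quasi-likelihood, Benjamini-Hochberg over all genes), with the 4 stages in 1 fit and the knockdown in another. The summed depths set the precision, and intervals cover the spread between animals. DESeq2 1.42.0, other scalings, filters, CM calls, thinning, leaving out animals and sums per chip were alternatives. Scripts were tested on simulated data. The genes and lists were chosen with earlier results of these data known. Named are the 10 genes, Jun, called pathway genes (at most 8 a comparison) and genes of highest correlation. Knockdown animals with the same number shared chips, and their deviations from group means correlated at 0.29 over 17807 genes. The hairpin of each knockdown well came from the deposited well tables.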

Additional observations from a re-analysis of the deposited data

Results flagged for a closer look

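Casq2 in the third P28 animal, at 661 scaled CPM, stood apart from the other 4 P28 animals, which lay between 320 and 370. The gap to the nearest of them was 0.855 of the range of the group. Jph2 in the same animal, at 72.3 scaled CPM, stood apart as well, with a gap of 0.758 of the range. Chance sets apart about 1 in 20 groups, and this animal was alone on its chip with the deepest CM-like cells of its stage. Among its cells of at least 10000 UMIs Casq2 was at 571 CPM and among its shallower cells at 567 CPM.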

How the results depend on the processing

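None of the 10 genes passed the threshold with edgeR as reported. Of 1438 values of the 10 genes over 26 other settings for the stages and 18 for the knockdown, 1389 kept their direction and side of the threshold, 7 passed it under the other setting only and 42 changed sign, where a change of sign by less than 1 SE in a value not called was counted as none. Called under other settings were 3 at P14 against P7 (cell-by-cell calls), 1 at P14 against P4 (DESeq2, and sums per chip), and 1 at P28 against P4 (cell-by-cell calls, and without mixed cells). Without mixed cells, 20 of all 3172 genes tested were called higher and 34 lower at P28 against P4. At P7 against P4, sums of at least 20 cells put Casq1 at −0.78, Ryr2 at −0.25, Atp2a2 at −0.21 and Camk2d at −0.51, and sums per chip at −0.68, −0.33, −0.24 and −0.70. Cell-by-cell calls put Casq1 at −0.95, Ryr2 at −0.86, Casq2 at −1.19, Atp2a2 at −1.09, Hrc at −0.33, Pln at −0.73 and Camk2d at −0.76, and thinning to 5000 UMIs put Ryr2 at −0.13. Leaving out 1 animal gave −0.78 to 1.24 for Casq1, −0.25 to 0.89 for Ryr2, −0.21 to 0.62 for Atp2a2 and −0.51 to 1.17 for Camk2d. At P14 against P7 Casq1 was at 0.29 (sums of at least 20 cells), 0.54 (cell by cell), 0.30 (per chip) and −2.23 to 0.29 (leaving out 1 animal), Casq2 at 1.02 (cell by cell), and Trdn, Ryr2 and Camk2d at −0.70, −0.72 and −0.71 with library totals. At P14 against P4 library totals put Jph2 at −0.45, Trdn at −0.66 and Ryr2 at −0.15. At P28 against P14 Casq2 was at 0.21 and Hrc at 0.24 cell by cell, Hrc at 0.23 when thinned, and Casq2 at 0.25 and Hrc at 0.32 with library totals. At P28 against P4 Jph2 was at 0.16 and Casq2 at 0.043 cell by cell, and the log2 ratio of Pln to Atp2a2 at 0.16 when thinned and −0.35 to 0.31 leaving out 1 animal. In the knockdown, leaving out 1 animal gave −0.53 to 0.20 for Jph2, −0.35 to 0.43 for Casq2, −0.36 to 0.23 for S100a1, −0.17 to 0.37 for Camk2d and −0.43 to 0.080 for the ratio. The cause was not tested. Over all genes edgeR called 0 higher and 1 lower (P7 against P4), 298 and 160 (P14 against P7), 113 and 80 (P14 against P4), 0 and 0 (P28 against P14), 400 and 274 (P28 against P4) and 0 and 0 (knockdown). In that order DESeq2 called 324 and 243, 796 and 802, 584 and 328, 108 and 58, 1169 and 459, and 7 and 4. Without a low-count filter these were 168 and 177, 539 and 459, 331 and 229, 66 and 73, 656 and 482, and 79 and 318. Library totals alone gave 162 and 978 (P14 against P7), 60 and 350 (P14 against P4) and 334 and 445 (P28 against P4), and sums per chip gave 360 and 170 and 900 and 721 in the last 2. Without the first or second P4 animal, P28 against P4 gave 33 and 67 or 13 and 56. P7 against P4 gave 200 and 282 without the second P7 animal, and the knockdown 4 and 183 without the first shNT animal. The replicate block of the animals sharing chips gave 6 genes called and none of the 10, and changed no other call. Library totals alone, cells of at least 10000 UMIs, wells of the CM fraction and leaving out the clusters led by other genes were chosen after seeing the data. Omitting mixed cells gave no value for comparisons with P7 or P14 and for the knockdown, and the UMI limits over all chips were the same as the main ones for the knockdown.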

Other observations

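The P28 animals of the knockdown experiment and the wild-type P28 animals were on other chips and were scaled separately. Their levels were not compared: Atp2a2 was at 12880 to 14100 scaled CPM in the 4 injected animals and at 4282 to 5559 in the 5 wild-type animals, and S100a1 was at 723 to 1087 and 904 to 2393. Median UMIs per CM-like cell were 30270 to 57820 in the former. Nppa, encoding the atrial natriuretic peptide and listed with the atrial markers, was at 24.9 and 15.9 scaled CPM in shNT and at 83.1 and 57.3 in shJun, with a log2 fold change of 1.78 ± 0.33, an edgeR adjusted p of 1.0 and a DESeq2 adjusted p of 0.00962. Nppa was chosen after its values were seen, and the other atrial markers did not share its difference. Means in shNT and shJun were 8.05 and 3.11 scaled CPM for Myl7 and 6.36 and 5.12 for Myl4. They were 1.81 and 2.07 for Sbk2 and 0.622 and 1.78 for Sln.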
